A study of Mus musculus with 30 samples.

Results

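Car4, Rgcc, Cxcl12 and Spock2 are 4 genes used as markers of brain capillary endothelium, and their transcript levels were followed over age in endothelial cells of the mouse brain. They were chosen by their levels over age, out of 48795 counted genes, because Car4 was lower at each later age in these same libraries, and the question was whether the other capillary markers follow it. The RNA came from primary endothelial cells of the brains of untreated mice with a WT genotype, aged 2, 6, 12, 18 or 24 months. Male and female mice gave 3 libraries each at every age, so that an age has 6, and the study's design text counts these as biological replicates. How the cells were isolated, the mouse strain, and whether a library holds 1 mouse or a pool were not stated in the labels. All 4 genes passed the filter on low counts, which kept 16844 genes.

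Capillaries are the narrowest vessels of the brain and carry most of the exchange between blood and tissue. Their endothelial cells form the blood-brain barrier, and they express a different set of genes from arterial and venous endothelium. Car4 encodes a carbonic anhydrase held on the outer cell surface by a GPI lipid anchor, where it interconverts carbon dioxide and bicarbonate at the capillary wall. Rgcc encodes a regulator of the cell cycle that responds to complement and to TGF-beta. Cxcl12 encodes a secreted chemokine that signals through the receptor Cxcr4 and is taken up by the scavenging receptor Ackr3. Spock2 encodes a testican, a secreted proteoglycan of the extracellular matrix related to Sparc.

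The promoters of the 4 genes are shown because the genes moved in separate ways with age and in pairs between libraries. Each window runs from 250 bases before to 50 bases after the gene's start in RefSeq (GRCm38.p6), 5′ to 3′ on the gene's strand. Capitals mark the TATA box letters TATAAA and the GC box letters GGGCGG, searched on both strands, so that GGGCGG on the other strand reads CCGCCC. Neighbouring GC box matches that share 1 base were each counted.
Car4 (chr11:84957504-84957803, plus strand): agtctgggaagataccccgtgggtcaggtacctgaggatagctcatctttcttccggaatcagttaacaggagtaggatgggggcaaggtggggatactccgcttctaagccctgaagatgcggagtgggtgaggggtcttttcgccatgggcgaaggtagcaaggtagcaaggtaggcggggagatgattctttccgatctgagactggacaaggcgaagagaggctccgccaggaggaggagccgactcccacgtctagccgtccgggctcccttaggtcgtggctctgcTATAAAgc
Rgcc (chr14:79301586-79301885, minus strand): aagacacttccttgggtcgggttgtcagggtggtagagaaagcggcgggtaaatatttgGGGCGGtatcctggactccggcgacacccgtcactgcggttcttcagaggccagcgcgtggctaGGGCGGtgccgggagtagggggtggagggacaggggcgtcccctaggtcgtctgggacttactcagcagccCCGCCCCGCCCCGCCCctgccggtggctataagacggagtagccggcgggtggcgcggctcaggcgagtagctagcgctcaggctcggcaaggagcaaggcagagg
Cxcl12 (chr6:117168285-117168584, plus strand): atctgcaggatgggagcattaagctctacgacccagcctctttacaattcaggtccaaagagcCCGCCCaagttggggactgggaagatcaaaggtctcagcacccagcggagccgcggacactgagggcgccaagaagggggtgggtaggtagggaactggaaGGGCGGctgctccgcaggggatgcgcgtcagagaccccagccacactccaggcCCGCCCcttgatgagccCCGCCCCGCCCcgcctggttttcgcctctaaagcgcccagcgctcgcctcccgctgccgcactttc
Spock2 (chr10:60106007-60106306, plus strand): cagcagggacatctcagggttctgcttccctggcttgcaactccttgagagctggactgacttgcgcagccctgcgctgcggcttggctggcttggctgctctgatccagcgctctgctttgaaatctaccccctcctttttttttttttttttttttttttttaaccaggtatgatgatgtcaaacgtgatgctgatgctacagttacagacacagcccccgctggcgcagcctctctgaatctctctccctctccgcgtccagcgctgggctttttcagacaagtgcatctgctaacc
The Car4 window held 1 match of TATAAA, which began 42 bases after the annotated start, and 0 matches of GGGCGG. The windows of Rgcc and Cxcl12 each held 5 matches of GGGCGG and 0 of TATAAA, and that of Spock2 held 0 of both. Among 32851 mouse windows of the same length, 13.6% held TATAAA and 35.7% held GGGCGG. The GC content was 57.3% in Car4, 66.7% in Rgcc, 64.7% in Cxcl12 and 52.3% in Spock2.

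Counts assigned to genes came to between 24140980 and 50464366 per library, and levels are given as CPM, counts relative to a fixed library total, after scaling between libraries. Endothelial genes were abundant, since Cldn5, the main claudin of brain endothelium, averaged 4114 CPM and the adhesion gene Pecam1 1038 CPM over the 30 libraries. Other cells were represented to a varying degree. The summed level of 10 neuron markers ranged from 6.49 to 20.2 CPM, and that of 9 microglia markers reached 1373 CPM, of 8 oligodendrocyte markers 1961 CPM and of 6 erythroid markers 2731 CPM in their highest library. The 8 choroid plexus and ependyma markers ranged from 161 to 6974 CPM, and among them Ttr, the transthyretin gene, averaged 1833 CPM. Reads outside annotated genes made up 5.06 ± 0.971% of reads (SD, n = 6) at 2 months, 5.69 ± 1.26% at 6, 6.03 ± 0.676% at 12, 10.4 ± 2.13% at 18 and 7.19 ± 1.76% at 24 months. The 18-month libraries held 7.99 to 13.1% and the 12-month libraries 4.89 to 6.83%, so these ages did not overlap in this measure. Which 6 of the 30 libraries were sequenced as single ends on another instrument was not stated in the labels, so an instrument difference cannot be told apart from the groups. In RNA from many cells, fewer capillary cells and less RNA per cell cannot be told apart.

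The 4 genes differed in abundance, and their order depends on the length used for each gene. Per length, as TPM, which divides counts by the combined exon length of each gene and scales each library to a fixed total, Car4 had a median of 3576 TPM over the 30 libraries with a range of 2153 to 5231 TPM. Rgcc had a median level of 2064 TPM, Spock2 of 664 TPM and Cxcl12 of 549.7 TPM. The combined exon length was 1966 bases in Car4, 918 in Rgcc, 8176 in Cxcl12 and 5533 in Spock2. Single annotated transcripts were shorter, at 435 to 1256 bases in Car4, 1878 to 5627 in Cxcl12 and 1460 to 5238 in Spock2. Which of them were present was not tested, so the order of the genes per transcript is not settled. No annotated gene overlaps Car4, Rgcc or Cxcl12, and the microRNA gene Mir6906 lies within Spock2 on the same strand.

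Car4 (ENSMUSG00000000805.18, chromosome 11, 84957786 to 84966044, plus strand, GRCm38) had a lower mean at each later age, and its level at 24 months was 52.3% of that at 2 months. At 2 months the lowest, median and highest of the 6 libraries were 2342, 3061 and 3251 CPM, with a mean of 2919.9 ± 341 (SD, n = 6). At 6 months they were 1919, 2578 and 2684 CPM, and at 12 months 1978, 2143 and 2475 CPM. At 18 months they were 1264, 1594 and 2017 CPM, and at 24 months 1368, 1559 and 1667 CPM. Every 24-month library lay below every 2-month library, while each pair of neighbouring ages overlapped. Such a separation was found in 2.75% of the genes tested, and for Car4 it restates what the gene was chosen for.

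The fitted slope of Car4 was -0.96 ± 0.09 log2 over the 22 months (SE, 95% interval -1.15 to -0.78), with no p given because the fall picked the gene. The changes between neighbouring ages were -0.25 ± 0.10 log2 from 2 to 6 months, -0.17 ± 0.10 from 6 to 12, -0.44 ± 0.10 from 12 to 18 and -0.07 ± 0.10 from 18 to 24. Of the 36 pairs of 1 library of 18 months with 1 of 12 months, 1 pair was in the opposite order, against 14 pairs for 24 and 18 months. The 12 to 18 month step had the largest estimate of the 4, which span 4 months for the first and 6 for the others, and the levels at 18 and 24 months were not separated by their spread. The libraries of 12 and 18 months did not overlap in the share of reads outside genes, so age and this measure cannot be told apart for that step. With the share of reads outside genes as a covariate, the slope of Car4 was -0.80 ± 0.10 log2.

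**Figure D1:**
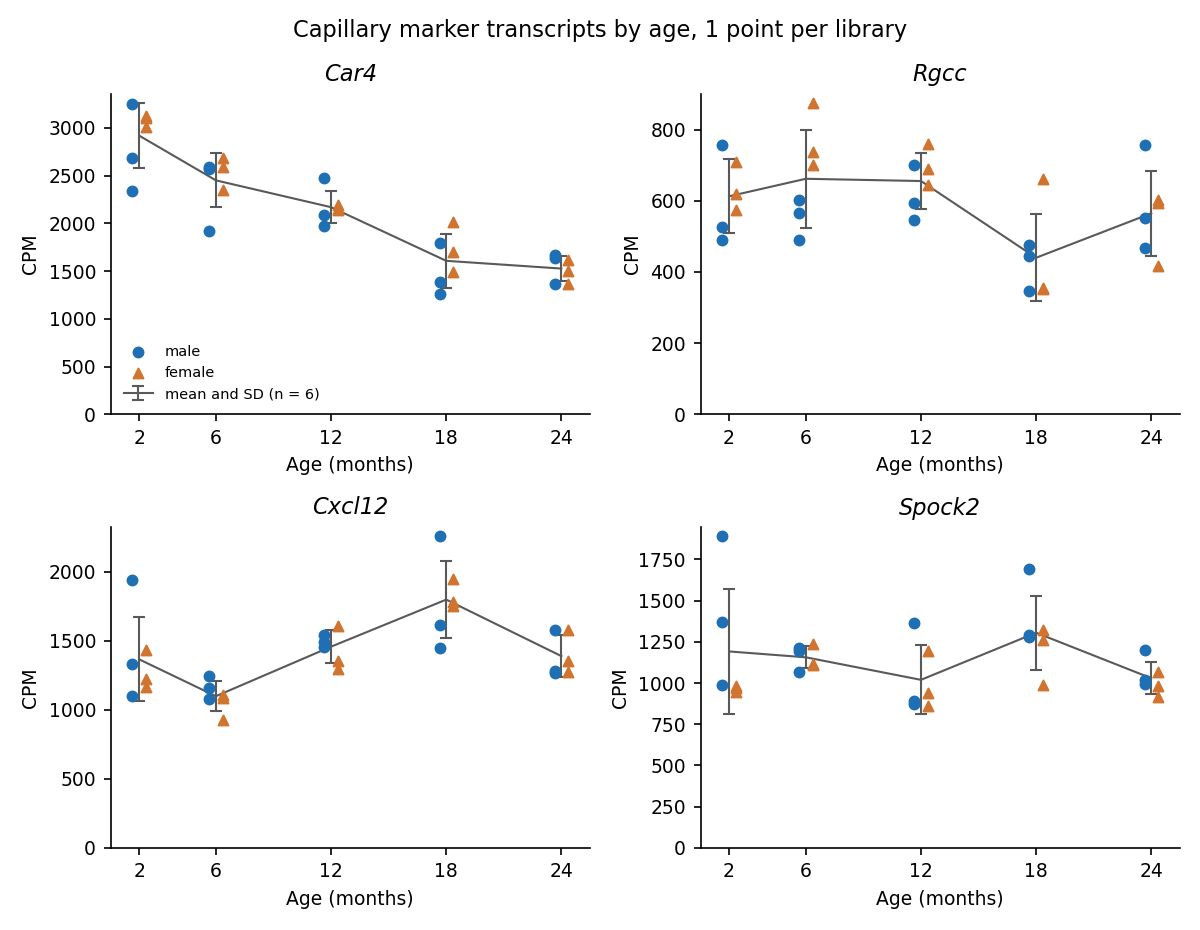
Level of each gene in CPM (vertical axes from 0) against age in months, with 1 point per library, males as circles and females as triangles, and the mean and SD of the 6 libraries of each age. Car4 goes from 2919.9 to 1527 CPM on average, Rgcc is lowest at 18 months (440.1 CPM), Cxcl12 is highest at 18 months (1798 CPM) and Spock2 lies between 1019 and 1305 CPM.

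Rgcc (ENSMUSG00000022018.7, chromosome 14, 79288756 to 79301645, minus strand) did not have a lower mean at each later age, as Car4 had. It had a lowest, median and highest value of 489.6, 597 and 756.8 CPM at 2 months, 489.6, 652 and 874 CPM at 6 months, and 546, 666 and 761 CPM at 12 months. At 18 months these were 348, 400.1 and 662 CPM, and at 24 months 418, 572 and 757 CPM. The first 3 ages overlapped closely, and 5 of its 6 libraries of 18 months lay below the lowest 2-month library, while the female replicate 6 of 18 months lay among the younger ones. The slope was -0.31 ± 0.16 log2 over 22 months (95% interval -0.62 to -0.00318, adjusted p = 0.207). It had the same sign as the slope of Car4, and no test compared them. The interval of the Rgcc slope assumes a normal distribution, and the unadjusted p of the slope test was 0.0563, so the slope did not pass without adjustment either. Among all genes tested 10.9% passed this test, 5.72% rising and 5.22% falling, and the falling and rising shares of the calls shifted with scaling, from 52.3% rising to 40.2% when libraries were scaled to endothelial identity genes.

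Between 12 and 18 months Rgcc fell, with a difference of -0.57 ± 0.15 log2 (adjusted p = 0.0141), a step that 13.2% of all genes passed. From 18 to 24 months its change was 0.37 ± 0.15 log2 (adjusted p = 0.248), where 1.26% of all genes passed. Compared with 2 months, the 24-month level differed by -0.11 ± 0.15 log2 (adjusted p = 0.746, with 8.35% of all genes passing). The fall between 12 and 18 months moved with the share of reads outside genes. With that share as a covariate, chosen for this step after seeing the data, the Rgcc difference was -0.03 ± 0.18 log2 (adjusted p = 0.985), and 18 genes in place of 2224 passed. As for Car4, age and this library measure cannot be told apart for this step.

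**Figure D2:**
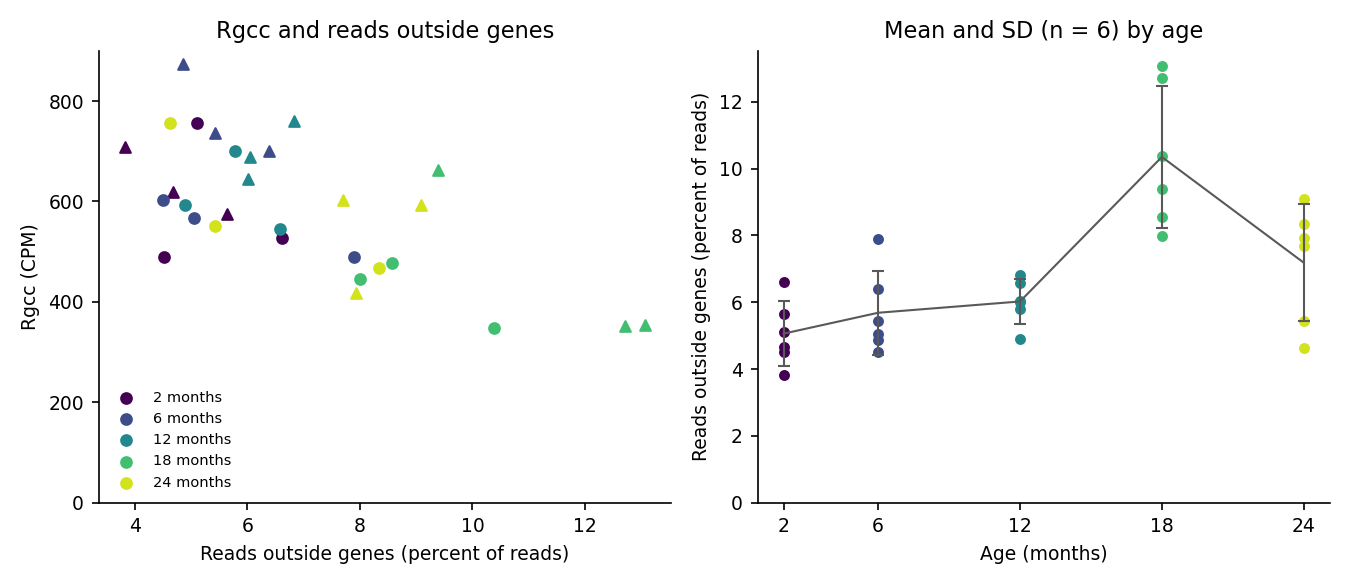
The left panel plots Rgcc in CPM against the percent of reads outside genes, with 1 point per library, coloured by age, males as circles and females as triangles. The right panel plots that percent by age with the mean and SD of 6 libraries, where 18 months has the highest mean (10.4%), and the 3 libraries with most reads outside genes are those with the lowest Rgcc.

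Cxcl12 (ENSMUSG00000061353.11, chromosome 6, 117168535 to 117181367, plus strand) did not fall at each later age either, and its mean was lowest at 6 months and highest at 18 months. Its lowest, median and highest values were 1098, 1279 and 1937 CPM at 2 months, 923, 1095 and 1247 CPM at 6 months, and 1294, 1476 and 1607 CPM at 12 months. At 18 months they were 1444, 1765 and 2257 CPM, and at 24 months 1268, 1317 and 1579.8 CPM. The 18-month libraries were the highest group and all lay above all 6-month libraries, a pair of ages picked after seeing the values and a separation found in 3.22% of the genes tested. The departure from a straight line passed (adjusted p = 0.00475), as it did for 17.7% of all genes.

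The slope of Cxcl12 was 0.32 ± 0.14 log2 over 22 months (adjusted p = 0.136) and did not pass. With reads outside genes as a covariate the slope was 0.04 ± 0.15 log2 (adjusted p = 0.959). Among the 30 fits that left out a library and the 13 other settings, it passed when the male replicate 3 of 2 months was left out, at 0.42 ± 0.13 log2 (adjusted p = 0.0343). That library held 1937 CPM of Cxcl12, against 1098 to 1431 CPM in the other 5 of its age. None of the 4 steps passed, with -0.31 ± 0.11 log2 from 2 to 6 months (adjusted p = 0.0850), 0.41 ± 0.12 from 6 to 12 (0.0592), 0.31 ± 0.11 from 12 to 18 (0.0749) and -0.37 ± 0.12 from 18 to 24 (0.0941). Among all genes 8.76% passed the first of these steps and 1.89% the second. Between 24 and 2 months Cxcl12 differed by 0.03 ± 0.11 log2 (adjusted p = 0.930). With reads outside genes as a covariate, added after seeing the data, the departure from a line had an adjusted p of 0.0539.

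Spock2 (ENSMUSG00000058297.16, chromosome 10, 60106219 to 60135198, plus strand) had no change with age that passed a test. Its lowest, median and highest values were 944, 988 and 1893 CPM at 2 months, 1066, 1155 and 1235 CPM at 6 months, and 859, 913 and 1362 CPM at 12 months. They were 989.6, 1284 and 1693 CPM at 18 months and 917, 1006 and 1201 CPM at 24 months. All 5 ages overlapped, and the 2-month group was spread widely by the male replicate 3 with 1893 CPM. The slope was -0.08 ± 0.13 log2 over 22 months (95% interval -0.34 to 0.18, adjusted p = 0.759). Without that library the slope was 0.02 log2 (adjusted p = 0.931), and with reads outside genes as a covariate it was -0.27 ± 0.15 log2 (adjusted p = 0.478). The step from 12 to 18 months was 0.35 ± 0.14 log2 (adjusted p = 0.0855) and that from 18 to 24 months was -0.34 ± 0.14 log2 (adjusted p = 0.222). The departure from a line had an adjusted p of 0.148 for Spock2 and 0.0606 for Rgcc.

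Most of the wider set of capillary markers did not pass either, with 3 of 18 falling, 1 rising and 14 not passing, where 5.22% of all genes fell and 5.72% rose. Their median slope was -0.06 log2 over 22 months, against 0.03 log2 over all genes tested. Itm2a, a membrane protein gene and the most abundant of the set, fell (slope -0.75 ± 0.11 log2 over 22 months, adjusted p = 1.75e-05). Its mean was 11105 ± 993 CPM at 2 months, 10943 ± 1497 at 6, 9963 ± 973 at 12, 6896 ± 559 at 18 and 7247 ± 1190 CPM at 24 months, so it was lower from 18 months on. Mfsd2a, which carries lysolipids and keeps vesicle traffic through these cells low, also fell (slope -0.63 ± 0.10 log2, adjusted p = 5.67e-05). Its mean stepped down at every age, with 1074 ± 138 CPM at 2 months, 863 ± 87.2 at 6, 829.6 ± 96.3 at 12, 738 ± 130.1 at 18 and 662 ± 39.9 CPM at 24. Slco1c1, a carrier of thyroid hormone, fell with a slope of -0.32 ± 0.08 log2 (adjusted p = 0.00517). Its means at 2 and 24 months were 2716 ± 187 and 2260.2 ± 179 CPM. With reads outside genes as a covariate the call of Slco1c1 was lost, while those of Itm2a and Mfsd2a held. Over all genes tested, 360 of the 1843 calls of the slope held with this covariate.

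Slc26a10 was the marker that rose, with a slope of 0.56 ± 0.17 log2 (adjusted p = 0.0255). Its means at 2 and 24 months were 388 ± 77.1 and 613.5 ± 206 CPM. Its call was lost in 6 of 13 other settings, and also without the 2-month replicate 2 or 3 or the 24-month replicate 1, all male. Among markers that did not pass, the transferrin receptor gene Tfrc had a slope of -0.23 log2, the amino acid transporter gene Slc7a5 of -0.11 log2 and the lactate transporter gene Slc16a1 of 0.10 log2. The VEGF receptor gene Kdr had a slope of 0.25 ± 0.23 log2, the organic anion transporter gene Slc22a8 of -0.14 log2 and the glutamine synthetase gene Glul of -0.08 log2. Chn2 (-0.16 log2), Tgfb2 (0.10 log2), Pglyrp1 (0.05 log2), Sgms1 (-0.03 log2) and Hmcn1 (0.22 log2) did not pass either. Gpihbp1, Lpl and Cd36, which handle lipid uptake in capillaries of other organs, averaged 2.28, 4.23 and 1.29 CPM and did not pass.

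**Figure D3:**
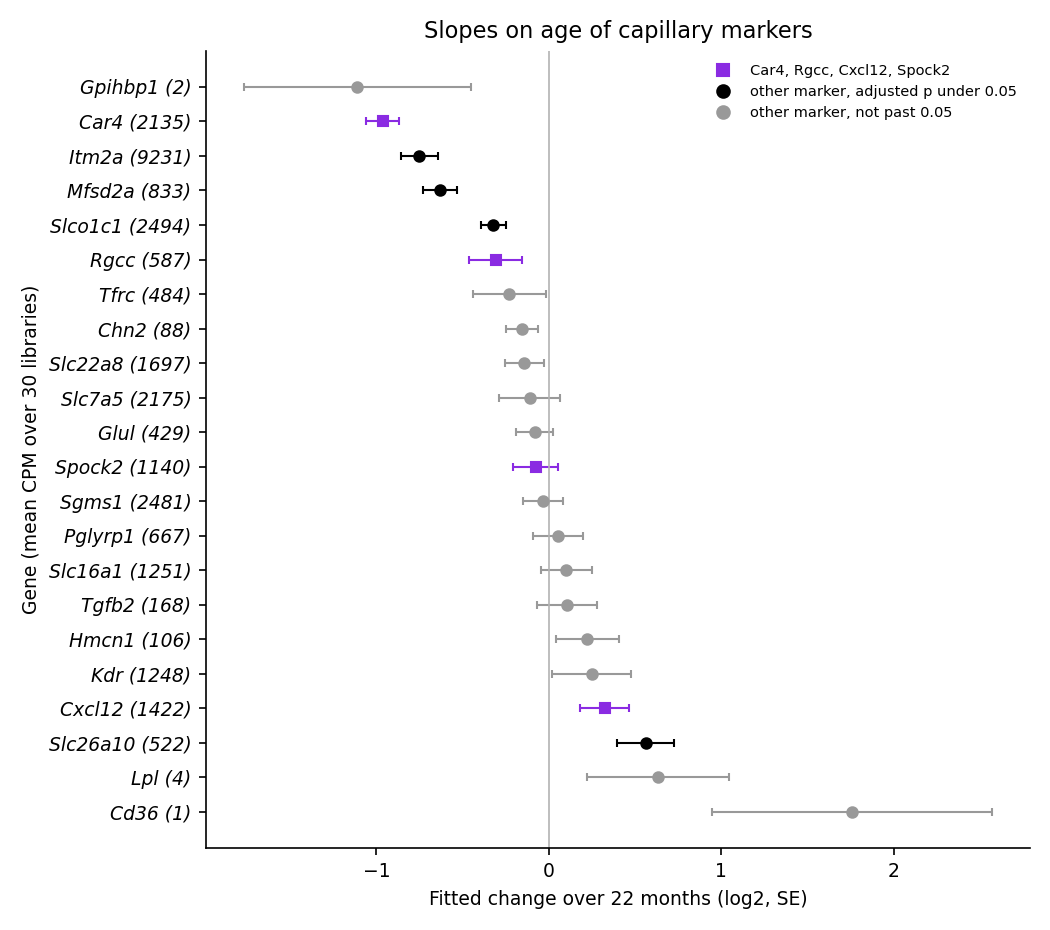
Fitted change over 22 months in log2 (horizontal axis, bars are SE) of the 4 genes (squares) and 18 other capillary markers (circles, black where the adjusted p was under 0.05), ordered by slope, with the mean CPM in brackets. Car4 (-0.96), Itm2a (-0.75), Mfsd2a (-0.63) and Slco1c1 (-0.32) lie left of 0 with short bars, Slc26a10 (0.56) lies right of 0, and the long bars belong to the scarce Gpihbp1, Lpl and Cd36.

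Other genes of the Car4 enzyme family gave calls in both directions. Of the 12 other carbonic anhydrase genes tested, Car2, Car5a and Car10 fell, Car5b rose and 8 did not pass, with a median slope of -0.13 log2, beside 5.22% of all genes falling and 5.72% rising. Car2, the cytosolic form, had a slope of -0.85 ± 0.10 log2 (adjusted p = 2.36e-06). Its lowest, median and highest values were 313, 432 and 516 CPM at 2 months and 189, 249 and 270.2 CPM at 24 months. These ages did not overlap, as in 2.75% of the genes tested, and the Car2 mean at 24 months was 56.2% of that at 2 months. Car14, a membrane-bound form, had a slope of 0.36 ± 0.13 log2 (adjusted p = 0.0709). The other 3 were scarce: the mitochondrial Car5a averaged 23.2 CPM and fell by 0.72 ± 0.19, Car10 averaged 2.68 CPM and fell by 1.74 ± 0.51, and the mitochondrial Car5b averaged 8.68 CPM and rose by 0.69 ± 0.20 log2. Per length, Car2 had a median of 399.6 TPM and Car14 of 109 TPM against 3576 TPM for Car4. The calls of Car5a, Car10 and Car5b, but not that of Car2, were lost with reads outside genes as a covariate, and those of Car10 and Car5b also without the male replicate 2 of 2 months. With that covariate the slopes were -0.37 ± 0.21 log2 for Car5a, -1.17 ± 0.61 for Car10 and 0.73 ± 0.24 for Car5b, which was not smaller.

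Of 19 genes of bicarbonate and acid-base transport that could be tested, the lactate exporter gene Slc16a3 (2.20 ± 0.27 log2) and the anion exchanger gene Slc4a3 (1.78 ± 0.31 log2) rose. Both were scarce, with means of 6.31 and 6.76 CPM over the 30 libraries. Slc16a4 fell by 0.53 ± 0.09 and the scaffold gene Slc9a3r1 by 0.36 ± 0.09, and the median slope was -0.05 log2. Of 16 genes of GPI-anchored surface proteins, the alkaline phosphatase gene Alpl rose (0.66 ± 0.20 log2), and the ephrin gene Efna1 (-0.48 ± 0.10 log2), the complement inhibitor gene Cd55 (-0.89 ± 0.28 log2) and the prion protein gene Prnp (-0.25 ± 0.08 log2) fell. Their median slope was -0.13 log2. For comparison with both lists, 5.72% of all genes tested rose and 5.22% fell. Leaving out single libraries ended the calls of Prnp, Alpl and Cd55 in 13, 8 and 6 of 30 fits. With reads outside genes as a covariate, those of Slc9a3r1, Efna1, Cd55 and Prnp were lost, and those of Slc16a3, Slc4a3, Slc16a4 and Alpl held.

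For the lists that follow, the comparison is 5.72% of all genes tested rising and 5.22% falling, with a median slope of 0.03 log2. Of 10 genes for receptors and partners of Cxcl12, 2 rose and 8 did not pass, with 5 slopes below 0 and a median of 0.02 log2. They were the hypoxia factor gene Epas1 (0.45 ± 0.13 log2, adjusted p = 0.0252) and the arrestin gene Arrb1 (0.66 ± 0.22 log2, adjusted p = 0.0437), whose call was lost in 18 of the 30 fits without 1 library. The signalling receptor gene Cxcr4 averaged 0.488 CPM with a slope of -1.37 ± 0.56 log2, and the scavenging receptor gene Ackr3 averaged 177 CPM with a slope of -0.24 ± 0.16 log2, and neither passed. Of 16 other chemokine genes tested, the fractalkine gene Cx3cl1 rose by 0.40 ± 0.12 log2 (adjusted p = 0.0275) and none fell, and their median slope was 0.97 log2, with 2 slopes below 0. Every slope above that median belonged to a scarce gene averaging at most 4.33 CPM, none of which passed, while Cx3cl1 averaged 294 CPM. Of 12 genes of the pathway around Rgcc the signal transducer gene Smad2 fell by 0.34 ± 0.10 and none rose, with a median of -0.12 log2. Of 14 genes of the testican and Sparc family and membrane metalloproteases, Sparc fell by 1.07 ± 0.15 (adjusted p = 2.05e-05) and none rose, with a median of -0.28 log2. The means of Sparc were 2960.0 ± 266 CPM at 2 months, 1236 ± 362 at 18 and 1439 ± 163 CPM at 24. The calls of Epas1, Arrb1 and Smad2 were lost with reads outside genes as a covariate, and that of Sparc held. The call of Epas1 also ended without replicate 2 or 4 of 2 months, that of Smad2 without replicate 4 of 2 months, and that of Cx3cl1 in 4 of the 30 fits without 1 library.

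Markers of other vessel segments and cells moved with age too, and their part in the values of the 4 genes was not tested. Beside the counts that follow, 5.72% of all genes tested rose and 5.22% fell. Of 20 endothelial identity genes Erg rose and Cldn5 and Sox18 fell, with a median slope of -0.02 log2, and all 3 calls were lost with reads outside genes as a covariate (adjusted p = 0.123, 0.293 and 0.58). Of 14 arterial markers 3 rose and none fell (Stmn2, Alpl and Bmx), and the summed level of the 14 ranged from 1384 to 1707 CPM at 2 months and from 2137 to 2797 CPM at 24 months. The sum did not climb steadily, with medians of 1481 CPM at 2 months, 2185 at 6, 2191 at 12, 1813 at 18 and 2376.5 CPM at 24. At 18 months it ranged from 1563 to 2175 CPM and overlapped 2 months. Alpl, also among the GPI-anchored genes, averaged 997 CPM of this sum. Of 13 venous markers 5 rose and 2 fell, with summed levels of 1621 to 2408 CPM at 2 months and 1299 to 2208 CPM at 24 months. Of 10 pericyte markers 4 rose (sums of 449 to 749 CPM at 2 months and 475 to 1227 CPM at 24), and of 7 smooth muscle markers 2 rose (94.2 to 371 CPM and 117 to 464 CPM). Of 9 astrocyte markers 4 fell (503 to 1373 CPM at 2 months and 221 to 646 CPM at 24), and of 8 choroid plexus markers 4 fell (926 to 4335 CPM and 635 to 2283 CPM). The 1373 CPM of astrocyte markers belong to the male replicate 1 of 2 months, and the other 5 libraries of that age reached at most 763 CPM. With reads outside genes as a covariate all 8 of these calls were lost, with adjusted p between 0.0587 for Aldoc and 0.612 for Folr1. In fibroblasts 1 of 8 markers fell (Slc22a6) and in neutrophils 1 of 4 tested rose (Retnlg), and both calls were lost with that covariate, as were those of the arterial Bmx, the venous Ackr1, Selp and Lrg1 and the pericyte genes Abcc9 and Notch3. Leaving out single libraries ended the calls of Slc22a6 in 20, Bmx in 17, Abcc9 in 16, Gjb6 in 14, Mlc1 in 12 and Retnlg in 10 of 30 fits. Among markers of neurons, oligodendrocytes, oligodendrocyte precursors, erythroid cells, microglia, macrophages of the brain's borders, B cells with plasma cells, and T with NK cells, none passed.

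Sex, which played no role in the choice of the genes, made no difference that passed in any of the 4. Females minus males, the difference was 0.08 ± 0.06 log2 for Car4 (95% interval -0.04 to 0.21, adjusted p = 0.833) and 0.15 ± 0.10 log2 for Rgcc (adjusted p = 0.793). It was -0.07 ± 0.07 log2 for Cxcl12 (adjusted p = 0.891) and -0.20 ± 0.09 log2 for Spock2 (95% interval -0.37 to -0.03, adjusted p = 0.577). Across all genes 0.101% passed this test, which is 17 genes, with 1316 at an unadjusted p under 0.05. At 2 months Car4 averaged 2759 ± 459 CPM in the 3 males and 3081 ± 58.7 CPM in the 3 females, and at 24 months 1558 ± 165 and 1496 ± 122 CPM. Since all 30 libraries entered the choice of Car4, its slopes within each sex only describe it, at -0.90 ± 0.16 log2 in the 15 male libraries and -1.03 ± 0.11 log2 in the 15 female ones. Its slope differed between females and males by -0.13 ± 0.19 log2 (95% interval -0.50 to 0.24, adjusted p = 0.933). The same difference was -0.39 ± 0.31 log2 for Rgcc (adjusted p = 0.887), 0.26 ± 0.28 for Cxcl12 (0.911) and 0.21 ± 0.27 for Spock2 (0.927), and 0% of all genes passed in edgeR, with 916 at an unadjusted p under 0.05.

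Between libraries of one age and sex, 3 of the 6 pairs of the 4 genes passed a test of covariation. The share of all gene pairs that would pass was not tested. After the mean of each age and sex was removed, Car4 and Rgcc had a Pearson r of 0.73 over the 30 libraries (permutation p = 0.00045, adjusted over 6 pairs 0.0027) and a Spearman rho of 0.76 (permutation p = 0.00022). Libraries with more Car4 than their group therefore tended to hold more Rgcc. This was not particular to Rgcc, since the 5 nearest to Car4 of all genes tested, named below, had r of 0.84 to 0.89. Cxcl12 and Spock2 had an r of 0.70 (permutation p = 0.002, adjusted 0.006) and a rho of 0.57 (permutation p = 0.00418). Rgcc and Cxcl12 ran in opposite directions, with an r of -0.53 (permutation p = 0.00982, adjusted 0.0196) and a rho of -0.52 (permutation p = 0.0121). The other 3 pairs did not pass, with an r of -0.45 for Car4 and Cxcl12 (rho -0.42, adjusted permutation p = 0.124), -0.43 for Car4 and Spock2 (rho -0.37, adjusted permutation p = 0.124) and -0.36 for Rgcc and Spock2 (rho -0.38, adjusted permutation p = 0.136). Without the 2 libraries farthest from the median, the 3 pairs that passed had an r of 0.74, 0.56 and -0.60. Car4 with Cxcl12 (r = -0.47, adjusted permutation p = 0.0368) and Rgcc with Spock2 (r = -0.52, adjusted permutation p = 0.0301) then passed as well. Within the 15 males r was 0.75, 0.73 and -0.70, of which the last did not pass (adjusted permutation p = 0.0535), and within the 15 females 0.80, 0.61 and -0.33, with none passing. With libraries scaled to endothelial genes, Cxcl12 and Spock2 (r = 0.52, adjusted permutation p = 0.125) and Rgcc and Cxcl12 (r = -0.27, adjusted permutation p = 0.417) no longer passed, and Car4 and Rgcc did (r = 0.83, adjusted permutation p = 0.00024).

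The same deviations also went with measures of the library. The share of reads outside genes had an r of -0.51 with Car4, -0.67 with Rgcc, 0.18 with Cxcl12 and 0.05 with Spock2 (n = 30, deviations from the mean of each age and sex, given as a description). The share of counts in genes with an exon length above the median of 2426 bases had an r of -0.62 with Car4, -0.48 with Rgcc, 0.33 with Cxcl12 and 0.56 with Spock2. Car4 and Rgcc lie below that length and Cxcl12 and Spock2 above it. The genes nearest to Car4 within age and sex lie on both sides of it, from 834 bases in Ndufaf8 to 6331 in Ndfip1. The part of length in the pairs was not tested. With the share of reads outside genes taken out, r was 0.60 for Car4 and Rgcc (permutation p = 0.0101, adjusted 0.0303) and 0.70 for Cxcl12 and Spock2 (permutation p = 0.00152, adjusted 0.00912). The Spearman rho of Car4 and Rgcc was then 0.42 and did not pass (adjusted permutation p = 0.115). That of Cxcl12 and Spock2 was 0.56 (adjusted permutation p = 0.0297). With the share of longer genes taken out, an alternative added after seeing the data, r was 0.62 and 0.66 for these pairs (adjusted permutation p = 0.031 for both), and -0.45 for Rgcc and Cxcl12 (adjusted permutation p = 0.0706).

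**Figure D4:**
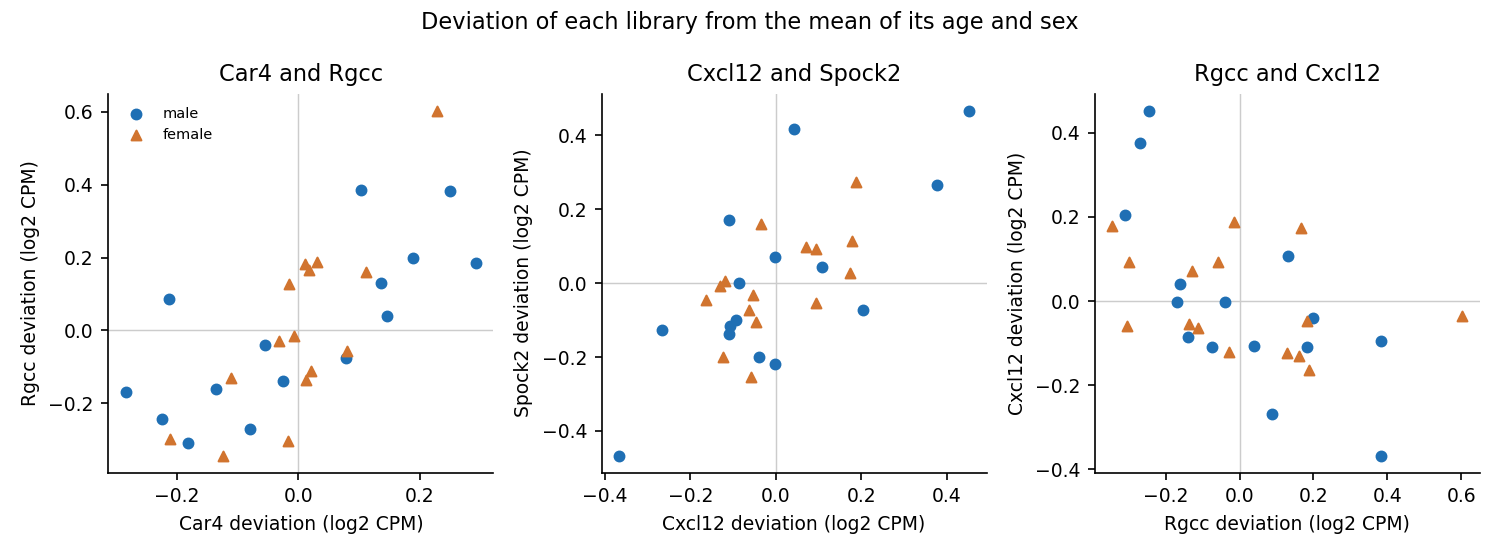
Deviation of each of 30 libraries from the mean of its age and sex in log2 CPM, for Car4 and Rgcc, Cxcl12 and Spock2, and Rgcc and Cxcl12, males as circles and females as triangles. The points rise from left to right in the first pair (r = 0.73) and the second (r = 0.70) and fall in the last (r = -0.53).

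The genes whose log2 CPM was most like that of Car4 over the 30 libraries were the adaptor gene Grap (r = 0.93), the endosomal GTPase gene Rab4a (0.91), Nrep (0.90), Itm2a (0.89) and the caspase gene Casp6 (0.89). They share the libraries, depth and ages with Car4, so these r are descriptions with no p. At 24 months Nrep was at 39.5% of its 2-month mean, Rab4a at 59.5%, Itm2a at 65.3%, Grap at 67.6% and Casp6 at 71.6%. All of them were lower at 18 and 24 months than at 2 months, which follows from picking them for likeness to Car4, itself picked for its fall. Nrep was already at 62.0% at 6 months, where Itm2a stood at 98.5%. After the means of age and sex were removed, 5 other genes were nearest to Car4, namely Wdr61 (r = 0.89), Ndfip1 (0.86), Atp6v1d (0.85), Ndufaf8 (0.84) and Selenof (0.84).

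For Rgcc the nearest genes over the 30 libraries were the splicing gene Dnajc8 (r = 0.90), the ubiquitin gene Ubb (0.87), the proteasome subunit gene Psmd4 (0.86), Rnaset2b (0.86) and Tmem59 (0.85). For Cxcl12 they were Pcnx (0.88), the RNA polymerase subunit gene Polr2a (0.83), Dock6 (0.83), the clathrin gene Cltc (0.80) and the VEGF receptor gene Flt1 (0.80). For Spock2 they were Gtf2i (0.84), Nacc1 (0.82), Snn (0.80), Tram2 (0.80) and the VE-cadherin gene Cdh5 (0.80). None of the 4 genes was among the 5 nearest of another.

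**Figure D5:**
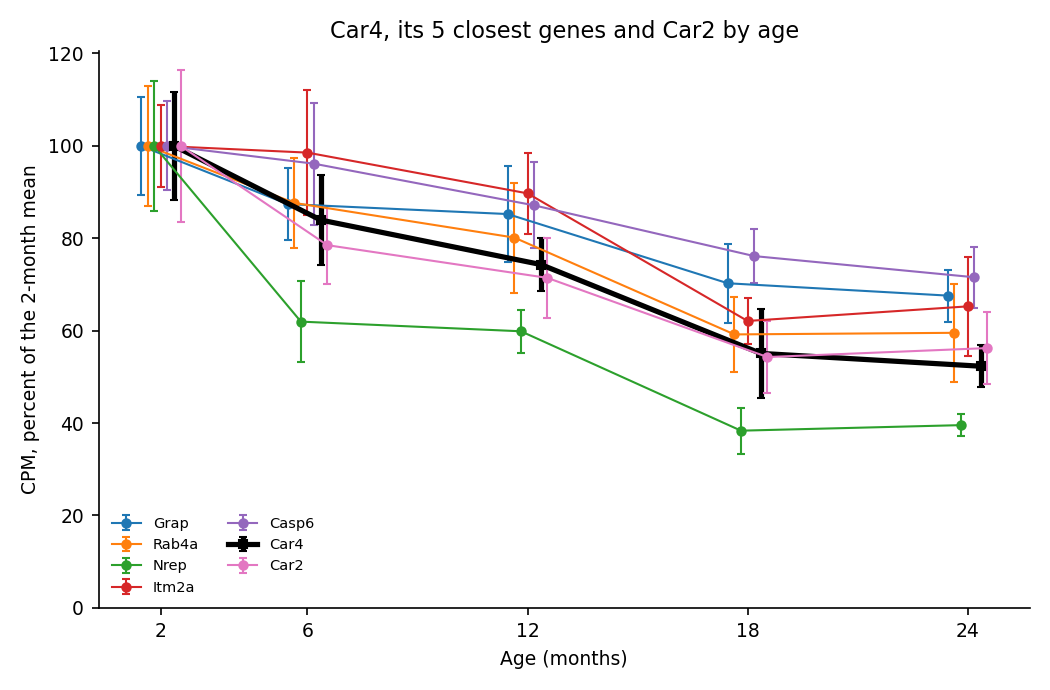
Mean CPM at each age as a percent of the 2-month mean (vertical axis from 0, bars are SD of 6 libraries on the same scale) for Car4, its 5 nearest genes and Car2, with points shifted slightly along the age axis. Car4 ends at 52.3% and Car2 at 56.2%, between Nrep at 39.5% and Casp6 at 71.6%.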

How the data were processed

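RNA-seq libraries were made per the labels' protocols with the SMART-Seq v4 kit and Nextera XT, which keep neither strand nor molecular identifiers, so PCR copies are counted. Of the 30 libraries 24 were paired-end and 6 single-end reads of 50 bases. STAR 2.5.2b, HTSeq, FastQC 0.11.4, MultiQC and the builds GRCm38 and mm10 are named in the submitters' processing notes. The authors deposited raw read counts per gene, 1 table per library with 3 count columns. The unstranded column was used, and the 4 lines that name no gene stayed out of the totals (unmapped 2.51 to 6.26%, several places 8.64 to 13.3%, outside genes 3.82 to 13.1%, several genes 3.61 to 4.21% of reads). A count of 0 allows up to 3 counts, 0.0594 to 0.124 CPM, which covers counting error only. All 75 replicate pairs differed beyond sampling noise.

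Symbols came from a gene name table (48349 identifiers matched) and coordinates from GENCODE M21. Tests used edgeR 4.0.16 under R 4.3.3: filterByExpr (minimum count 10, total 15), TMM scaling, robust quasi-likelihood tests over all 16844 genes, Benjamini-Hochberg adjustment, threshold 0.05. The slope had sex as a covariate, as the design text states, and steps took age as a factor. The departure from a line was the joint test of 3 polynomial terms. The SE comes from the F statistic. Covariation used two-sided permutation tests with 100000 draws within age and sex. DESeq2 1.42.0 and the settings in the closing section were alternatives, and the code was tested on simulated data. The edgeR p-values weigh a change against the spread between these libraries, estimated with information shared across genes. Those of the covariation compare r with shuffled libraries.

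The 4 genes and all lists were chosen with earlier results of these data known. The genes named are the 4, the listed genes that passed (at most 6 per list, by p), the capillary markers, the 3 most abundant carbonic anhydrases and the 5 most alike by Pearson r. Genes outside these (Pecam1, Cxcr4 and Ackr3) were named for their role.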

Additional observations from a re-analysis of the deposited data

Results flagged for a closer look

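Mfsd2a, the lysolipid transporter gene among the other capillary markers, had 809 CPM in the male replicate 1 of 2 months. The gap to the next library of that age was 0.664 of the range of the 6 libraries, above the critical value of 0.625. Chance marks about 1 in 20 groups, and 45 groups of 6 libraries were examined for 9 genes. The same library had the highest summed markers of the 30 for astrocytes (1373 CPM), microglia (1373 CPM), oligodendrocyte precursors (64.6 CPM) and B and plasma cells (6.75 CPM). It ranked 2 for oligodendrocytes (935 CPM), smooth muscle (371 CPM) and fibroblasts (791 CPM), and 29 for endothelial identity genes. The part of these levels in the Mfsd2a value was not tested.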

How the results depend on the processing

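Of the 139 values under other settings, 111 kept their direction and their side of the threshold or stayed within the allowed range. The slope of Car4 lay between -1.003 and -0.935 log2 when each library was left out in turn. The number of genes passing the slope test was 1843, and 402 with reads outside genes as a covariate, 940 without the 2-month libraries, 726 without the 18-month ones, 193 in males alone, 623 in females alone and 1308 to 2021 with 1 library left out. The share of calls that rose was 52.3%, and 40.2% with scaling to endothelial genes, 65.7% with the covariate, 35.2% without 2 months and 66.3% in males.

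With the covariate of reads outside genes Rgcc turned to 0.10 log2. Spock2 turned to 0.0275 log2 in females, and ran from -0.12 to 0.0216 log2 with 1 library left out. The sex difference in the Spock2 slope ran from -0.0122 to 0.30 log2 and that in Cxcl12 from 0.06 to 0.37. The Cxcl12 slope ran from 0.27 to 0.42 log2 with 1 library left out, and was 0.04 log2 with the covariate, where Spock2 was at -0.27 log2. Of the other capillary markers 0 fell in males alone, and 0 rose with endothelial scaling, the covariate, without 2 months, without 18 months and in either sex alone, with 0 to 1 rising when 1 library was left out. The Rgcc fall from 12 to 18 months became -0.0342 log2 with reads outside genes and -0.36 log2 with the share of longer genes as a covariate (adjusted p = 0.165). The F of the departure from a line was 5.82 for Cxcl12 with reads outside genes as a covariate, and ran from 3.07 to 7.32 for Rgcc with 1 library left out. It passed for Rgcc without 2-month replicate 2, 6-month replicate 3, 18-month replicate 6 or 24-month replicate 4. The cause of these changes was not tested. The settings for the departure and the step, and the share of longer genes, were chosen after seeing the data.

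In the pairs, r was 0.80 for Car4 and Rgcc and 0.61 for Cxcl12 and Spock2 in females (permutation, adjusted p = 0.184 and 0.167), and 0.52 for the latter with endothelial scaling (0.125). For Rgcc and Cxcl12 it was -0.70 in males, -0.33 in females, -0.27 with endothelial scaling and -0.45 without the share of longer genes. Without the 2 farthest libraries, r was -0.47 for Car4 and Cxcl12 (adjusted permutation p = 0.0368) and -0.52 for Rgcc and Spock2 (0.0301), so both passed there. Rgcc and Spock2 also passed in males (r = -0.69, adjusted permutation p = 0.0459) but not in females (r = 0.12, 0.905). No paired analysis was possible because the labels give animal codes and no replicate numbers that link libraries of different ages.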
